A study of Mus musculus with 4 samples.

Results

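Colony stimulating factors and the receptor chains of the beta-common family were followed in Mnk3 cells as 7 genes chosen by name out of 41388 listed in the count tables. The ligands are Csf2, Csf1 and Il3, and the receptor chains are Csf2ra, Csf2rb, Csf2rb2 and Csf1r. All 7 were found in the tables, and 4 of them, Csf2, Csf1, Csf2ra and Csf1r, had enough counts for the test between groups.

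Mnk3 is a mouse cell line used as a model of group 3 innate lymphoid cells (ILC3), and the labels give neither its clonal origin nor a passage. Stimulated cells (2 libraries) received IL-1b and IL-23, each at 10 ng/ml, for about 16 h, and control cells (2 libraries) were left untreated. RNA-seq was made from ribosome-depleted total RNA, with summed gene counts of 23047723 to 29078765 per library. Nothing in the labels tells whether the 2 libraries of a group are separate cultures, and the p-values therefore rest on a spread between libraries that may be technical. All 16 ILC3 markers examined were tested, and their summed level was 3300 to 4180 CPM (counts scaled to a common library size) in stimulated cells and 4930 to 5070 CPM in control cells. The sum includes Il22, an effector cytokine gene, which alone had 1590 and 857 CPM in stimulated libraries 1 and 2. In bulk RNA, fewer cells of a type and less RNA per cell cannot be told apart.

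GM-CSF, the product of Csf2, binds the alpha chain Csf2ra and signals through the beta-common chain Csf2rb, which IL-3 and IL-5 receptors also use and which activates JAK2 and STAT5. Mice carry a second beta chain, Csf2rb2, that serves IL-3 alone. CSF-1, the product of Csf1, and IL-34 share a different receptor, the tyrosine kinase encoded by Csf1r, which is a hallmark of macrophages and their precursors. In the mouse gut, GM-CSF made by ILC3 is known to act on mononuclear phagocytes.

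The sequences below belong to Csf2 and Csf1, the members that changed. The promoters (RefSeq, GRCm38.p6, minus strand, 250 bases before to 50 after the annotated start) have matches to an NF-kB pattern, GGG and CC separated by 5 bases, on either strand in capitals, at chr11:54249850-54250149 for Csf2 and chr3:107760420-107760719 for Csf1.
Csf2 promoter: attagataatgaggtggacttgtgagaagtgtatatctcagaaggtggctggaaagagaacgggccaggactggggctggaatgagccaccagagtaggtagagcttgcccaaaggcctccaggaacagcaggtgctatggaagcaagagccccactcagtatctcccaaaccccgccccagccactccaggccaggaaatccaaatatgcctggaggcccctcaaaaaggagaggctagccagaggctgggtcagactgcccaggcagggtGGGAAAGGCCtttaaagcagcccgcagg
Csf1 promoter: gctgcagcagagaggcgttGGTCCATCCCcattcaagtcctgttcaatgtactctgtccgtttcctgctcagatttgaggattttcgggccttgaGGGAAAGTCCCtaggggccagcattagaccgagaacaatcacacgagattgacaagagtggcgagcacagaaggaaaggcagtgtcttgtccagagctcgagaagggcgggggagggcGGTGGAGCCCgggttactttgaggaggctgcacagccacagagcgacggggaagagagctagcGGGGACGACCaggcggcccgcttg
The pattern occurred once in the Csf2 window and 5 times in the Csf1 window, where 1 pair of matches overlaps by all but 1 base at each end. It is a loose pattern that 50.8% of 32851 promoters of the same length hold. The AP-1 pattern TGANTCA and the STAT pattern TTCNNNGAA, held by 7.81% and 8.3% of promoters, were in neither window. The NFAT pattern GGAAA, held by 61.3% of promoters, occurred 3 times in each, and 1 of these matches in each window lies within an NF-kB match. RefSeq starts Csf2 232 bases upstream of the start in the count tables, so the Csf2 window lies wholly upstream of that start.

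Csf2 also carries a dense run of ATTTA pentamers, the core of AU-rich elements through which short-lived cytokine mRNAs are known to be destabilised. The densest 30 bases of the 3′ UTR (GENCODE M21, GRCm38, minus strand) are shown with the pentamers in capitals, at chr11:54247329-54247358 for Csf2 and chr3:107741109-107741138 for Csf1.
Csf2 window: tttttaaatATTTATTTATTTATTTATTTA
Csf1 window: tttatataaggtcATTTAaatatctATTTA
The 317-base 3′ UTR of Csf2 held 9 pentamers, or 28.4 per kb, the fifth highest density among 11724 tested genes with a 3′ UTR. Its densest window held 5, a number that 23 tested genes reached. The 2111-base 3′ UTR of Csf1 held 4 pentamers, or 1.89 per kb, and 63.4% of tested genes had a lower density. Il3 had 1 pentamer in 101 bases and Csf1r had 3 in 1669 bases, and the 3′ UTRs of Csf2ra, Csf2rb and Csf2rb2 held 0.

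Both ligand genes that could be tested rose after stimulation, while neither tested receptor chain, Csf2ra or Csf1r, passed in either direction. Csf2rb and Csf2rb2 had too few counts to be tested. Of the 4 tested members 2 were higher and 0 lower at an adjusted p under 0.05 in edgeR's quasi-likelihood test, against 35.8% of all 13838 genes tested in either direction, 17.5% higher and 18.3% lower. At an unadjusted p under 0.05 the same 2 members were counted, and DESeq2 and limma-voom each called 2. The median log2 change of the 4 was 1.47, beside -0.02 over all tested genes. The groups did not overlap for Csf2 and Csf1, both with stimulated above control, while among all tested genes the groups did not overlap for 70.7%, with stimulated above for 34.4% and below for 36.3%.

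Csf2 (ENSMUSG00000018916, chromosome 11 from 54247271 to 54249667 on the minus strand in the count tables, 4 exons) had 21.2 and 42.0 CPM in stimulated libraries 1 and 2, against 1.16 and 1.50 CPM in control libraries 1 and 2. The raw counts behind these levels were 536 and 960 in stimulated cells and 35 and 44 in control cells. Every stimulated library lay far above both controls. The mean was 31.6 ± 14.7 CPM in stimulated cells and 1.33 ± 0.242 CPM in control cells (SD, n = 2 each), a 23.7-fold increase. The log2 fold change was 4.56 ± 0.41 (SE, edgeR adjusted p = 0.000916), which ranked 89 among the 2417 genes that rose. The stimulated libraries differed from each other, with stimulated 2 at 1.98 times the level of stimulated 1, a ratio higher than in 99.3% of the genes that rose. Il22 and Il17f, the abundant effector cytokines of these cells, had ratios of 0.538 and 0.568 and so were higher in stimulated 1. Among the other tested members, Csf2ra and Csf1r were also higher in stimulated 2, at ratios of 1.61 and 1.84 from low counts. Csf1 had a ratio of 1.04. An antisense gene, Gm12223, shares 96 of the 800 exon bases of Csf2 and had 3 and 6 counts in stimulated cells and 5 and 0 in control cells.

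Csf1 (ENSMUSG00000014599, chromosome 3 from 107741048 to 107760469, minus strand) had 5.58 and 5.82 CPM in stimulated cells, against 0.597 and 0.683 CPM in control cells, from 141 and 133 counts and 18 and 20 counts. The groups did not overlap, and the libraries within each group lay close together. The mean was 5.70 ± 0.169 CPM in stimulated cells and 0.640 ± 0.0607 CPM in control cells (SD, n = 2 each), an 8.85-fold increase. The log2 fold change of Csf1 was 3.15 ± 0.29 (SE, edgeR adjusted p = 0.000648), rank 169 of the 2417 genes that rose.

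Il3, which lies 15636 bases from Csf2 in the same cytokine cluster (chromosome 11 from 54265303 to 54267277, minus strand), was at or near 0 in every library. It had 0 and 1 counts in stimulated cells and 0 and 0 in control cells and was not tested. The single stimulated count gives 0.0208 CPM with an exact 95% interval of 0.000526 to 0.116, and the limit for 0 counts over both control libraries, set at 3 counts, is 0.0505 CPM. Intervals and such limits cover counting error only.

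**Figure D1:**
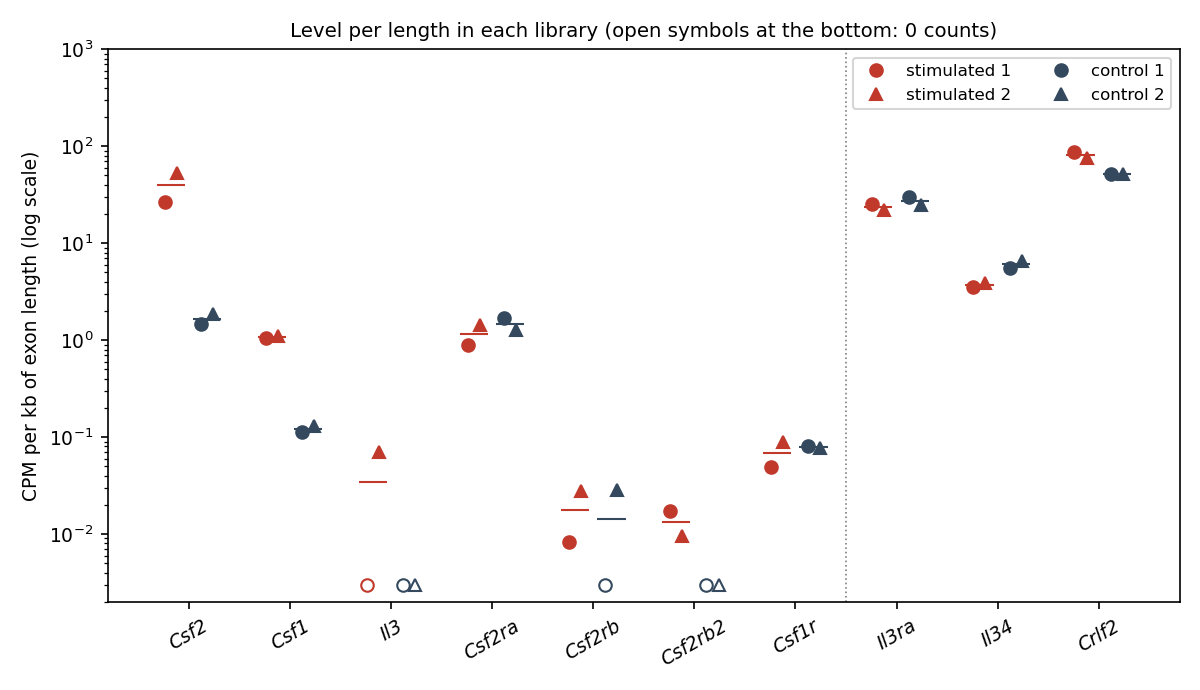
Level per length in each library, in CPM per kb of exon length on a log axis with open symbols for 0 counts, for the 7 members (left of the dotted line) and 3 related genes; short lines are group means. Csf2 reached 26.5 and 52.5 CPM per kb in stimulated cells, against 1.45 and 1.88 in control cells, while Csf2rb and Csf2rb2 stayed under 0.03 in every library.

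The GM-CSF alpha chain was present at a low level and the beta chains were at the limit of detection. Csf2ra (chromosome 19 from 61224402 to 61228418, minus strand) had 1.66 and 2.67 CPM in stimulated cells, against 3.12 and 2.36 CPM in control cells. The ranges overlapped, and the log2 fold change was -0.34 ± 0.34 (edgeR adjusted p = 0.475). Without stimulated library 1 the change was -0.04, and without stimulated library 2 it was -0.69, so the 2 stimulated libraries gave different sizes and neither fit passed.

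Csf2rb (chromosome 15 from 78325990 to 78351000, plus strand), the signalling chain shared by GM-CSF, IL-3 and IL-5, had 1 and 3 counts in stimulated cells and 0 and 4 counts in control cells. Both groups summed to 4 counts, and the ratio of summed levels scaled by library size, stimulated over control, was 1.24 with an exact 95% counting interval of 0.23 to 6.63. Csf2rb2 (chromosome 15 from 78282517 to 78305603, minus strand), the mouse IL-3 beta chain, had 2 and 1 counts in stimulated cells and 0 and 0 in control cells. Neither beta chain passed the low-count filter. The upper ends of their intervals over the stimulated libraries were 0.213 CPM for Csf2rb and 0.182 CPM for Csf2rb2, and over the control libraries 0.172 CPM for Csf2rb. The limit for 0 counts of Csf2rb2 in control cells is the same 3-count limit as for Il3. The genes are close copies: 12.3% of the 50-base stretches of Csf2rb transcripts also occur in Csf2rb2 and 18.4% of those of Csf2rb2 occur in Csf2rb, falling to 4.63% and 6.82% at 100 bases. The sources used here do not say how reads matching both were counted, and the division of counts among the pair is uncertain.

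Csf1r (chromosome 18 from 61105572 to 61132149, plus strand) had 6 and 10 counts in stimulated cells and 12 and 11 counts in control cells, or 0.238 and 0.438 CPM against 0.398 and 0.376 CPM. The groups overlapped, with a log2 fold change of -0.21 ± 0.54 (edgeR adjusted p = 0.791), and 0.18 without stimulated library 1. Of its 4885 exon bases, 871 are shared with exons of Hmgxb3 on the opposite strand. Hmgxb3 had 1809 to 2595 counts in stimulated cells and 2017 to 2357 in control cells. The sources used here do not say whether strand was used in counting, and the few Csf1r counts cannot be told apart from reads of Hmgxb3.

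Markers of macrophages, which express Csf1r, were read beside it. Of 30 myeloid markers 11 were tested, and Lyz2, Cd14, C1qa, C1qb, C1qc, S100a8 and S100a9 were among the 10 with 0 counts in all 4 libraries. Spi1, a master regulator of myeloid cells, averaged 0.0198 CPM in stimulated cells and 0.0166 CPM in control cells. The summed level of the list was 86.2 to 104 CPM in stimulated cells and 260 to 287 CPM in control cells. Of the 11 tested, 2 rose, 4 fell and 5 did not pass, or 54.5% called, against 35.8% of all tested genes. Adgre1, which encodes the macrophage antigen F4/80, was one that rose, with 1.74 and 8.19 CPM in stimulated cells, against 0.0664 and 0 CPM in control cells. Most of the sum came from Fcgr3, which had 28.3 ± 3.86 and 140 ± 2.84 CPM, and Zbtb46, which had 36.9 ± 2.73 and 72.7 ± 2.67 CPM (stimulated and control, SD, n = 2 each). Their part in the results was not tested.

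Per length, the order of the members in stimulated cells was Csf2 at 39.5 ± 18.4 CPM per kb, then Csf2ra at 1.17 ± 0.385 and Csf1 at 1.08 ± 0.0322, whose libraries overlap, then Csf1r at 0.0691 ± 0.029 (SD, n = 2). In control cells it was Csf2 at 1.67 ± 0.302 and Csf2ra at 1.48 ± 0.291, whose libraries overlap, then Csf1 at 0.122 ± 0.0115 and Csf1r at 0.0792 ± 0.00325. Csf2 stood above 85.3% of tested genes in stimulated cells and above 25.6% in control cells, and Csf1 above 22.8% and 3.3%. Within single libraries the ratio of Csf2 to Csf2ra per length was 29.5 and 36.4 in stimulated cells, against 0.861 and 1.47 in control cells. The ratio of Csf2 to Csf1 was 25.0 and 47.5 in stimulated cells, against 12.8 and 14.5 in control cells. Il3, Csf2rb and Csf2rb2 had too few counts to be ordered.

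**Figure D2:**
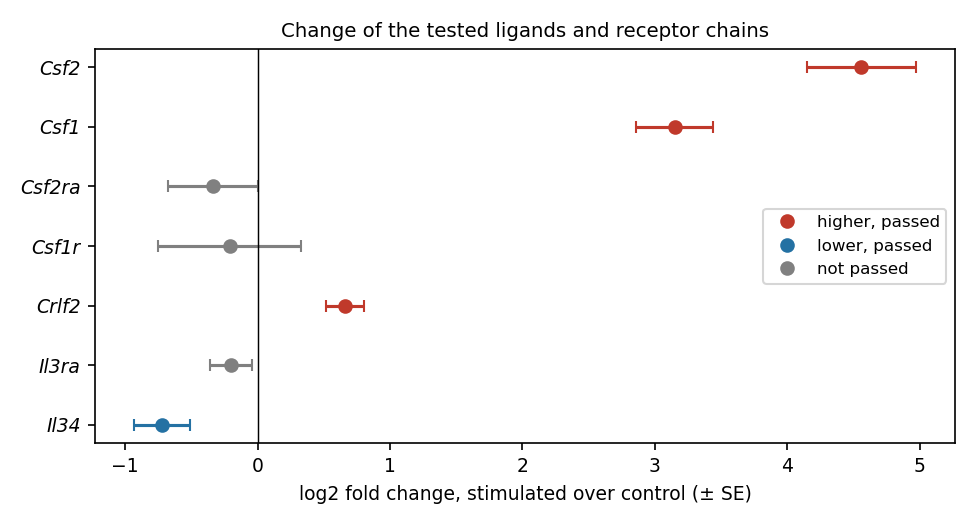
Log2 fold change, stimulated over control, with SE bars, for the tested members (upper 4) and the tested related genes (lower 3). Csf2 and Csf1 lie at 4.56 and 3.15, while Csf2ra and Csf1r lie near 0 and did not pass.

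Other ligands and receptor chains of these systems mostly had too few counts to be tested. Of 11 genes, 10 were matched to a single gene in the count tables. Flt3l was not, and no level is given for it. Of the 10, 3 were tested, with 1 higher, 1 lower and 1 not passed (median log2 change -0.20). Il3ra, the IL-3 alpha chain, was per length the most abundant chain of the beta-common family, at 23.8 ± 2.25 CPM per kb in stimulated cells and 27.4 ± 3.65 in control cells (SD, n = 2 each). It had 35.4 and 31.0 CPM in stimulated cells, against 41.8 and 34.6 CPM in control cells (log2 -0.20 ± 0.16, edgeR adjusted p = 0.374). Its groups overlapped. Il34, the other ligand of the CSF-1 receptor, had 6.85 and 7.57 CPM in stimulated cells, against 10.8 and 12.9 CPM in control cells. It fell by 0.72 ± 0.21 on the log2 scale (edgeR adjusted p = 0.0361), the opposite direction to Csf1. The call of Il34 ended without any 1 library, at 0.139 and 0.094 without stimulated 1 and 2 and 0.0503 and 0.179 without control 1 and 2. The ratio of Il34 to Csf1 per length was 3.30 and 3.49 in stimulated cells, against 48.5 and 50.8 in control cells. Crlf2, the TSLP receptor chain, had 116 and 100 CPM in stimulated cells, against 68.2 and 68.6 CPM in control cells (log2 0.66 ± 0.14, edgeR adjusted p = 0.0113), and 0.0672 without stimulated 1.

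The remaining related genes that were matched were at or near 0. Il5ra, the IL-5 alpha chain, had 0 counts in all libraries, and Il5 had 0 and 1 in stimulated cells and 1 and 2 in control cells. Csf3, which encodes G-CSF, had 6 and 5 counts in stimulated cells and 2 and 4 in control cells, a ratio of summed levels of 2.26 with an exact 95% counting interval of 0.768 to 7.46. Its receptor gene Csf3r had 0 and 1 counts in stimulated cells and 0 and 0 in control cells. Kitl, Flt3 and Tslp had at most 4 counts in any library.

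Genes that carry and restrain signals of beta-common receptors were read from 5 gene lists, together with factors for Csf2 transcription and mRNA decay. Many other cytokine receptors use them too. The lists were chosen with earlier results of these data known. Over all tested genes 35.8% were called, with 17.5% higher and 18.3% lower. Of 19 tested signal transducers 4 rose, 1 fell and 14 did not pass, or 26.3% called (median -0.03). The list had 8 calls without stimulated library 2. Stat5a, the transcription factor downstream of JAK2, had 820 and 598 CPM in stimulated cells, against 78.2 and 71.5 CPM in control cells (log2 3.24 ± 0.20, edgeR adjusted p = 0.000239). Jak2, the kinase bound to the beta-common chain, rose by 1.28 ± 0.16 and Gab2, a docking adaptor, by 0.90 ± 0.15. Akt1, a survival kinase and among the most abundant that did not pass, had -0.22 ± 0.15.

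Of 12 tested negative regulators 5 rose, 4 fell and 3 did not pass, or 9 of 12 called (median -0.28). The feedback inhibitors Cish, Socs1 and Socs3 rose by 3.86 ± 0.23, 3.42 ± 0.19 and 2.54 ± 0.17, with Cish at 37.9 ± 7.25 CPM in stimulated cells and 2.60 ± 0.446 CPM in control cells (SD, n = 2 each). Of the 4 that fell, named after their values were seen, Ptpn6 and Inpp5d encode phosphatases that dampen cytokine receptor signals and changed by -1.15 ± 0.14 and -1.06 ± 0.15, and Cblb and Dok1 were the others. Sh2b3 and Cbl had -0.40 ± 0.14 and -0.33 ± 0.16 and did not pass, though Sh2b3 passed as lower under upper quartile scaling (adjusted p = 0.0407) and total count scaling (0.0346), and both passed with the replicate block (0.000676 and 0.00745). Of 14 tested STAT5 targets, a list that shares Cish and Socs2 with the regulators, 9 rose, 2 fell and 3 did not pass, or 78.6% called (median 1.26). This list too was chosen with earlier results known, and STAT5 activity was not tested. Pim2, a survival kinase, had the steepest rise of the list at 5.81 ± 0.22, Pim1 rose by 2.36 ± 0.15, and Mcl1 and Ccnd3 had 0.29 ± 0.16 and 0.35 ± 0.13 and did not pass, and both passed as higher with the replicate block only (adjusted p = 0.0317 and 0.00533). The 2 targets that fell, also named after their values were seen, were Bcl2, a survival gene, at -1.24 ± 0.19, and Lta, a lymphotoxin gene, at -0.76 ± 0.17.

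Factors known to act at the Csf2 gene in lymphocytes moved in both directions, with 7 of 27 higher, 10 lower and 10 not passed, or 63.0% called (median -0.24). Jun, an AP-1 subunit gene, had 201 and 130 CPM in stimulated cells, against 33.9 and 35.4 CPM in control cells (log2 2.25 ± 0.22, edgeR adjusted p = 0.000891), and Batf, another AP-1 family gene, rose by 2.41 ± 0.18. Nfatc1, a calcium-driven activator of cytokine genes, had 29.7 and 32.4 CPM in stimulated cells, against 118 and 102 CPM in control cells (-1.83 ± 0.15, edgeR adjusted p = 0.000463). The NF-kB genes Nfkb1 and Nfkb2 had -0.24 ± 0.14 and -0.43 ± 0.15 and did not pass. Nfkb2 passed as lower under upper quartile scaling (adjusted p = 0.0408), total count scaling (0.0361) and DESeq2 (0.0226), and with the replicate block (0.00339). Irf4, named here after its values were seen, had 72.7 and 19.3 CPM in stimulated cells, against 0.796 and 0 CPM in control cells, and did not pass (edgeR adjusted p = 0.0604).

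Of 12 tested genes for decay or stability of cytokine mRNA, 1 rose, 2 fell and 9 did not pass, or 25.0% called (median 0.06). Zfp36l2 and Zfp36l1 encode proteins that bind AU-rich elements and promote decay. Binding to Csf2 mRNA and the decay of that mRNA were not tested. Zfp36l2 had 38.1 and 45.9 CPM in stimulated cells, against 134 and 167 CPM in control cells (-1.84 ± 0.17, edgeR adjusted p = 0.000715). Zfp36l1 changed by -1.08 ± 0.28 (edgeR adjusted p = 0.0279; 0.0968 without stimulated 2). Elavl1, which encodes the stabilising protein HuR, rose by 0.61 ± 0.14 (edgeR adjusted p = 0.0142; 0.0759 without stimulated 1 and 0.0556 without control 1). Khsrp and Cnot1 had 0.19 ± 0.14 and -0.08 ± 0.13 and did not pass.

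**Figure D3:**
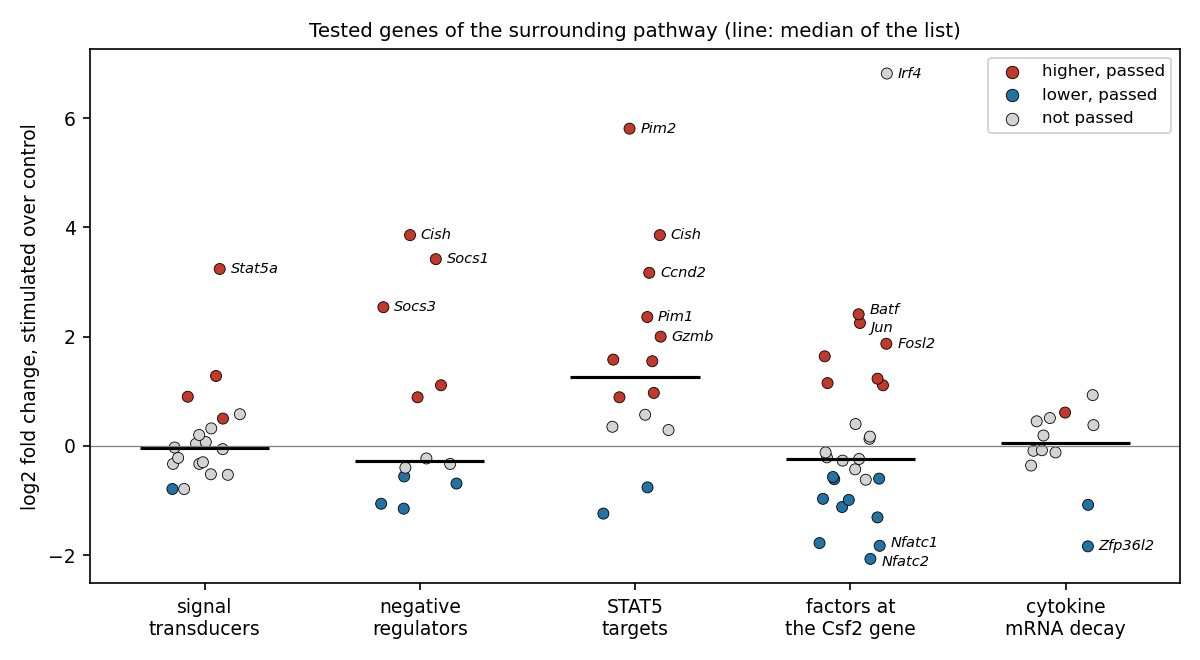
Log2 fold change, stimulated over control, of every tested gene in the 5 pathway lists, each point 1 gene and each line the list's median; the genes of larger change are named. STAT5 targets have the highest median at 1.26, and Irf4 is drawn at 6.82 although it did not pass. The lists were chosen with earlier results of these data known.

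Genes around the members were examined for changes shared with them. Within 200 kb of any member 61 annotated genes that are not members were listed and 25 tested, with 2 higher, 6 lower and 17 not passed. That is 32.0% called, near the 35.8% of all tested genes. The 2 that rose both lie downstream of Csf2. All 4 tested genes near Csf2 also lie within 200 kb of Il3. P4ha2, a collagen prolyl hydroxylase subunit whose start lies 149572 bases downstream of the Csf2 start, had 5.70 and 5.08 CPM in stimulated cells, against 0.664 and 0.751 CPM in control cells (log2 2.92 ± 0.29, edgeR adjusted p = 0.0008). The lincRNA 4933405E24Rik, 36382 bases downstream, had 1.46 and 4.68 CPM in stimulated cells, against 0.299 and 0.273 CPM in control cells (3.40 ± 0.65, edgeR adjusted p = 0.00937). Like Csf2 it was higher in stimulated 2, with a log2 change of 4.01 when stimulated 1 was left out and 2.36 with stimulated 2 left out. Its call ended without control 1 (0.0514) and without control 2 (0.0578).

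On the other side of Csf2 the tested genes fell. Acsl6, a fatty acid CoA ligase, had 0.396 and 0.963 CPM in stimulated cells, against 2.26 and 4.27 CPM in control cells (-2.27 ± 0.52, edgeR adjusted p = 0.0159), and changed by -3.00 without stimulated 2. Fnip1, which encodes a folliculin partner, changed by -0.70 ± 0.22 (edgeR adjusted p = 0.0455). This was lost without stimulated 1 (0.187), without control 2 (0.168) and without robust estimation (0.0509). Around Csf1, 3 of 5 tested neighbours fell and 2 did not pass. Eps8l3 had 3.09 and 2.54 CPM in stimulated cells, against 26.6 and 20.1 CPM in control cells (-3.05 ± 0.24, edgeR adjusted p = 0.000412), and 4933431E20Rik and Gstm5 changed by -1.21 ± 0.26 and -0.93 ± 0.29. The call of Gstm5 ended without stimulated 1 (0.077), stimulated 2 (0.17) or control 1 (0.255) and with DESeq2 (0.0534), limma-voom (0.051) or no robust estimation (0.0511), and that of 4933431E20Rik without stimulated 1 (0.0547) or control 1 (0.0535). None of the 3 tested neighbours of Csf2ra and none of the 8 around the beta chains passed in the main edgeR fit, DESeq2 or limma-voom. In the main edgeR fit 0 had an unadjusted p under 0.05. With the replicate block in edgeR, Grk5 near Csf2ra passed as lower (adjusted p = 1.12e-09). Ift27 near the beta chains passed as lower with that block (5.63e-05) and with no low-count filter (0.0257). Of the 5 around Csf1r, Slc6a7 alone passed, at -1.65 ± 0.25.

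**Figure D4:**
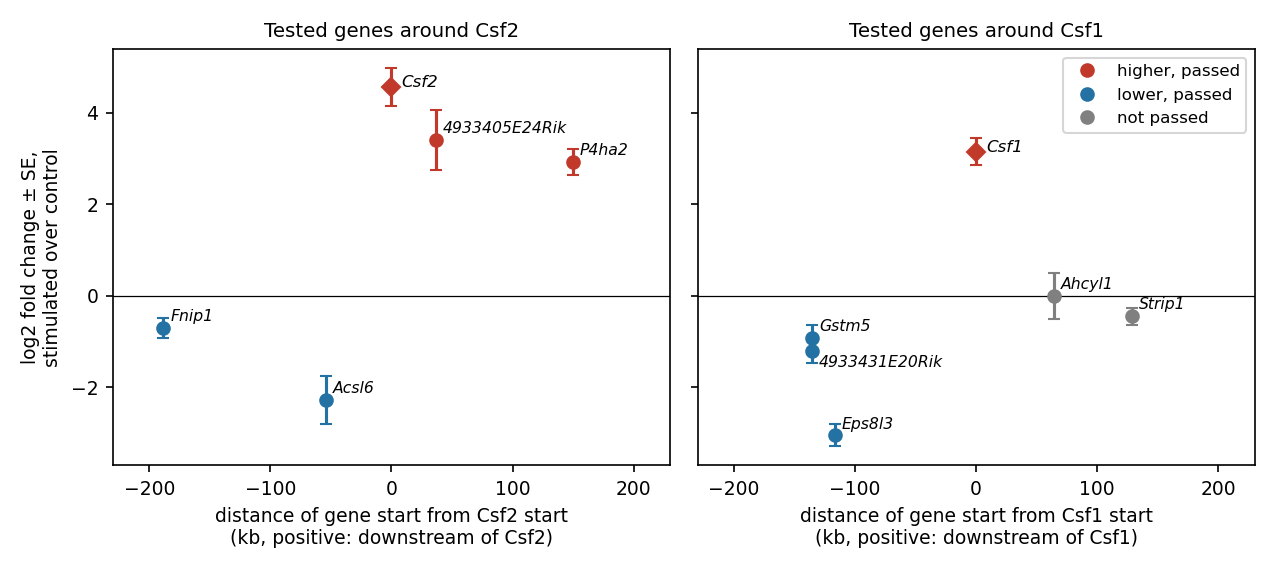
Log2 fold change with SE bars, stimulated over control, of tested genes within 200 kb of Csf2 (left) and Csf1 (right), by distance of the gene's start in kb along the member's own direction. Downstream of Csf2, 4933405E24Rik and P4ha2 lie at 3.40 and 2.92, and upstream Acsl6 and Fnip1 lie below 0.

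The genes of most like level and pattern were those with the smallest Euclidean distance between log2 CPM over the 4 libraries. For Csf1 these were P4ha2 at 0.27, the same gene that lies downstream of Csf2, and Ptgis, the prostacyclin synthase gene, at 0.66. For Csf2 they were Cbln2 at 1.11 and Crtam, an adhesion molecule of activated lymphocytes, at 1.22, so no gene matched Csf2 as closely as P4ha2 matched Csf1. Unlike Csf2, both were higher in stimulated 1 than in stimulated 2. Cbln2 had 26.8 and 20.6 CPM and Crtam had 37.8 and 25.4 CPM in stimulated libraries 1 and 2. For Csf2ra they were Plin4 at 0.26 and A730011C13Rik at 0.27.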

How the data were processed

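RNA-seq of 4 Mnk3 libraries was analysed from 1 deposited table per library. The submitters' processing notes list STAR, Subread and featureCounts, with no versions or roles. Build, annotation and use of strand: not given in the sources used here. The deposited count of each gene, named as such per the file headers, is a whole number. The CPM deposited by the authors is that count over the library's total, and the RPKM deposited by the authors is that CPM per kb of listed length; both were checked on the values and not used further. Identifiers were matched to GENCODE M21, and 40340 matched.

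Stimulated and control libraries were compared on the deposited counts with edgeR 4.0.16 (R 4.3.3, limma 3.58.1): filterByExpr, TMM scaling, quasi-likelihood test, robust estimation, treatment as the only term, Benjamini-Hochberg over 13838 tested genes. CPM are TMM-scaled. The SE is the absolute change over the square root of F, an approximation. The common coefficient of variation between libraries of a group, as estimated in edgeR, was 18.4%. A count of 0 was read against 3 counts over the group. Scripts were tested on simulated data. Library 1 of a group has rep1 in its title and library 2 no number. Alternatives were other scalings, filters and thresholds, DESeq2 1.42.0, limma-voom, no robust estimation, a replicate block, and each library left out. Neighbours lay within 200 kb. Genes were named by a rule: all members and related genes, in each pathway list the 3 called genes of lowest adjusted p and the 2 uncalled genes of highest level, tested neighbours, and for members of at least 1 CPM the 2 most like genes. Of the promoter table, 5 members matched. Members and lists were chosen with earlier results of these data known. The search for ATTTA pentamers was added after these data were seen. Some genes that the rule names are not reported here.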

Additional observations from a re-analysis of the deposited data

How the results depend on the processing

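Csf2 and Csf1 kept their direction and passed under all 14 alternatives, with log2 changes of 4.02 to 4.98 and 3.05 to 3.24. Csf2ra ranged from -0.69 to -0.04 and never passed. Csf1r reversed to 0.18 without stimulated replicate 1 and otherwise ranged from -0.67 to -0.17, never passing, and it was not tested with the 1 CPM filter.

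Leaving out each library in turn gave 3258 to 3958 genes past the threshold, against 4950, and 0 to 1 of the related ligands and chains, against 2. It gave 4 to 8 signal transducers, against 5, 6 to 8 negative regulators, against 9, 9 to 12 STAT5 targets, 13 to 15 factors at Csf2, and 6 to 8 neighbours. These fits have fewer samples, and the lone library of a group is assumed to vary like the other group. At an adjusted p of 0.01 there were 2568 genes, 0 related genes, 5 negative regulators, 11 factors at Csf2, 1 decay gene and 4 neighbours. With no low-count filter 9 signal transducers and 6 decay genes passed, and with DESeq2 8 signal transducers; the cause was not tested.

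The replicate block, by kind of title, gave 7986 genes (3986 higher, 4000 lower), 13 signal transducers, 8 decay genes and 14 neighbours. Deviations of like-titled libraries correlated at 0.49 across genes, but the labels state no pairing, and the block leaves 1 residual degree of freedom. Depth limits Il3, Csf2rb, Csf2rb2 and Csf1r, whose counts were 0 to 12 per library.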

Other observations

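Markers of other lymphoid and tissue cells were read as levels. Of 14 T cell markers 11 were tested, 0 rose and 5 fell, and their summed level was 240 to 241 CPM in stimulated cells and 863 to 915 CPM in control cells. Zap70 and the T cell receptor constant gene Trbc1 made up most of it, while Cd3e had at most 1.06 CPM. Of 9 B cell markers 4 were tested, 1 rose and 2 fell, with 12.7 to 21.9 CPM in stimulated cells and 40.7 to 65.2 CPM in control cells. Of 10 mast cell and basophil markers, cells that use beta-common receptors, 2 were tested and 1, Cpa3, fell. It had 0.317 and 0.263 CPM in stimulated cells and 3.22 and 6.87 CPM in control cells, and Fcer1a had 0 counts throughout. The other tested marker of this list did not pass. The list summed to 6.92 to 7.13 CPM in stimulated cells and 11.7 to 14.9 CPM in control cells. Cpa3 was thus a small part of the sum in stimulated cells. Of 11 stromal markers 4 were tested, 2 rose and 1 fell, with 1060 to 1200 CPM in stimulated cells and 708 to 791 CPM in control cells. As 8 of the 11 averaged under 0.5 CPM over all libraries, nearly all of this sum came from the few others. Pdgfrb had 0.515 and 0.0438 CPM in stimulated cells and 0.365 and 0 CPM in control cells. Of the 16 ILC3 markers 4 rose, 7 fell and 5 did not pass, or 68.8% called. The part of these genes in the results above was not tested.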
